A study of Mus musculus with 10 samples.

Results

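The cholesterol synthesis genes examined here are 9 named genes driven by the transcription factor SREBP2: Hmgcs1, Mvd, Idi1, Fdps, Fdft1, Sqle, Lss, Cyp51 and Insig1. Their identifiers and positions in GENCODE M21 (GRCm38) are given with each gene. Each was found once by its symbol among the 57010 gene identifiers of the count table, and all 9 were among the 15539 genes tested. RNA was sequenced from retinas of mice aged 6 to 8 weeks, harvested 14 days after intravitreal injection. One group of 5 libraries came from mice given AAV2-GFP and the other group of 5 from mice given AAV206-GFP, so that every mouse carried an adeno-associated virus with green fluorescent protein and only the capsid differed by label. Strain, sex and the promoter driving the reporter are not given in the sources used here, and uninjected retinas were not analysed here. AAV2 is a capsid in wide use for the retina, and the series title speaks of a vector specific to the RPE (retinal pigment epithelium). The comparison asks which retinal transcripts differ between the capsids.

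Cells build cholesterol from acetyl-CoA through mevalonate, isoprenoid diphosphates, squalene and lanosterol. When sterols in the endoplasmic reticulum run low, SCAP escorts SREBP2 to the Golgi, where a pair of proteases releases its transcription factor domain, and the genes of the pathway are transcribed together. INSIG proteins hold SCAP back when sterols are plentiful. The retina both makes cholesterol locally, in neurons and Müller glia, and takes it up from the circulation through the RPE.

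The bases before the transcription start are shown for 3 of the genes because SREBP2 acts there together with NF-Y and Sp1. They are Hmgcs1, the 1 gene of the group whose window held the sterol element searched, Mvd, which had the lowest fold change, and Lss, which had the highest. RefSeq (GRCm38.p6) gave a promoter window of 250 bases before to 50 bases after the start for 6 of the 9 genes: Hmgcs1, Mvd, Idi1, Lss, Cyp51 and Insig1. Capitals mark the core of the sterol regulatory element (TCACNCCAC), the NF-Y box (CCAAT, or ATTGG on the other strand) and the Sp1 box (GGGCGG, or CCGCCC). The 3 motifs do not contain each other. Each sequence is written 5′ to 3′ on the strand of its gene, Mvd on the minus strand and the others on the plus strand. Each ends before the first base that GENCODE M21 annotates as the gene.
Hmgcs1 chr13:119690101-119690350: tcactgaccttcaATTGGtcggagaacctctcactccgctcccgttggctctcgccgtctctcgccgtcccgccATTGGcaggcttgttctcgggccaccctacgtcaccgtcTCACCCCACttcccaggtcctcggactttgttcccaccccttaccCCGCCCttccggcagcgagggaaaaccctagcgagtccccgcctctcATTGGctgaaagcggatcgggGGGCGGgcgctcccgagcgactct
Mvd chr8:122443423-122443672: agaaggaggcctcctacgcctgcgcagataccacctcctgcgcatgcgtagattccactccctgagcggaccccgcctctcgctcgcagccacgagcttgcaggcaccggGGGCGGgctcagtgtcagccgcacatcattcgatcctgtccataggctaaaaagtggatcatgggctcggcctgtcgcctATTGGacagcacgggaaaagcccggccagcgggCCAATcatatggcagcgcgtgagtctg
Lss chr10:76531355-76531587: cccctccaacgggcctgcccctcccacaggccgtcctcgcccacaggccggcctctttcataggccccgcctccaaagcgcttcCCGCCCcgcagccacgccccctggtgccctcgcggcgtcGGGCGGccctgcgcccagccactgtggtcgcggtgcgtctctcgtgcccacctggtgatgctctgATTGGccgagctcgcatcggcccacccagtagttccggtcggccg
TCACNCCAC occurred on either strand in 1 of the 6 windows, that of Hmgcs1, as TCACCCCAC between 137 and 129 bases before the start, and in 1.24% of all 32851 promoter windows of the table. CCAAT and GGGCGG each occurred in all 6 windows, against 37.4% and 35.7% of all windows. The 250 bases before the start were 51.2% (Idi1) to 73.6% (Lss) G and C in these 6 genes. The median over all promoters was 52.4%, and the part of base content in the motif counts was not tested. A match describes the letters and not a bound site.

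Total counts lay between 10989845 and 12752588 per library. At this depth 3 counts equal 0.231 to 0.273 CPM, the unit used below for a count scaled to its library size (adjusted by the trimmed mean of M values, TMM), while the 9 genes lay between 11.5 and 130.4 CPM, or 131 to 1566 counts. Rod markers summed to between 53906 and 63400 CPM in every library. AAV2-GFP replicates 1 and 4 carried high immune transcripts: the mean log2(CPM + 1) of 24 interferon and antigen presentation genes was 5.59 and 4.62 there, against 2.02 to 2.96 in the other 8 libraries. The 10 T and NK lymphocyte genes summed to 24.3 CPM in AAV2-GFP replicate 1 and to at most 1.34 CPM in any AAV206-GFP library. For the 9 genes, values without AAV2-GFP replicate 1 are given where they differ by over 1.5 times. Whether retinas were pooled is not stated, so the p-values measure the spread between these libraries.

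Among the 9 genes, 1 differed between the vectors. Lss, the enzyme that closes the sterol rings, was 1.32-fold higher with AAV206-GFP, while the enzymes directly before and after it, Sqle and Cyp51, had log2 fold changes of -0.026 and -0.036 and did not pass the test. The count of 1 in 9 (11.1%) stands beside 11.2% of all tested genes with an edgeR adjusted p-value under 0.05 (Benjamini-Hochberg), so the share of the group that changed was that of the background. At an unadjusted p-value under 0.05 stood 1 of the 9 genes, against 28% of all tested genes. Higher calls made up 5.95% of all tested genes and lower calls 5.3%. The median log2 fold change of the 9 genes was 0.060, against -0.0095 over all tested genes. Summed over the 9 genes, the AAV2-GFP level was 519 ± 49.5 CPM and the AAV206-GFP level 553 ± 27.4 CPM (SD, n = 5), with ranges of 436 to 561 and 522 to 594 CPM that overlap. AAV2-GFP replicate 1 was the lowest library, and without it the AAV2-GFP level was 540.0 ± 19.1 CPM (SD, n = 4) and the difference between groups 13.3 in place of 34.2 CPM.

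**Figure D1:**
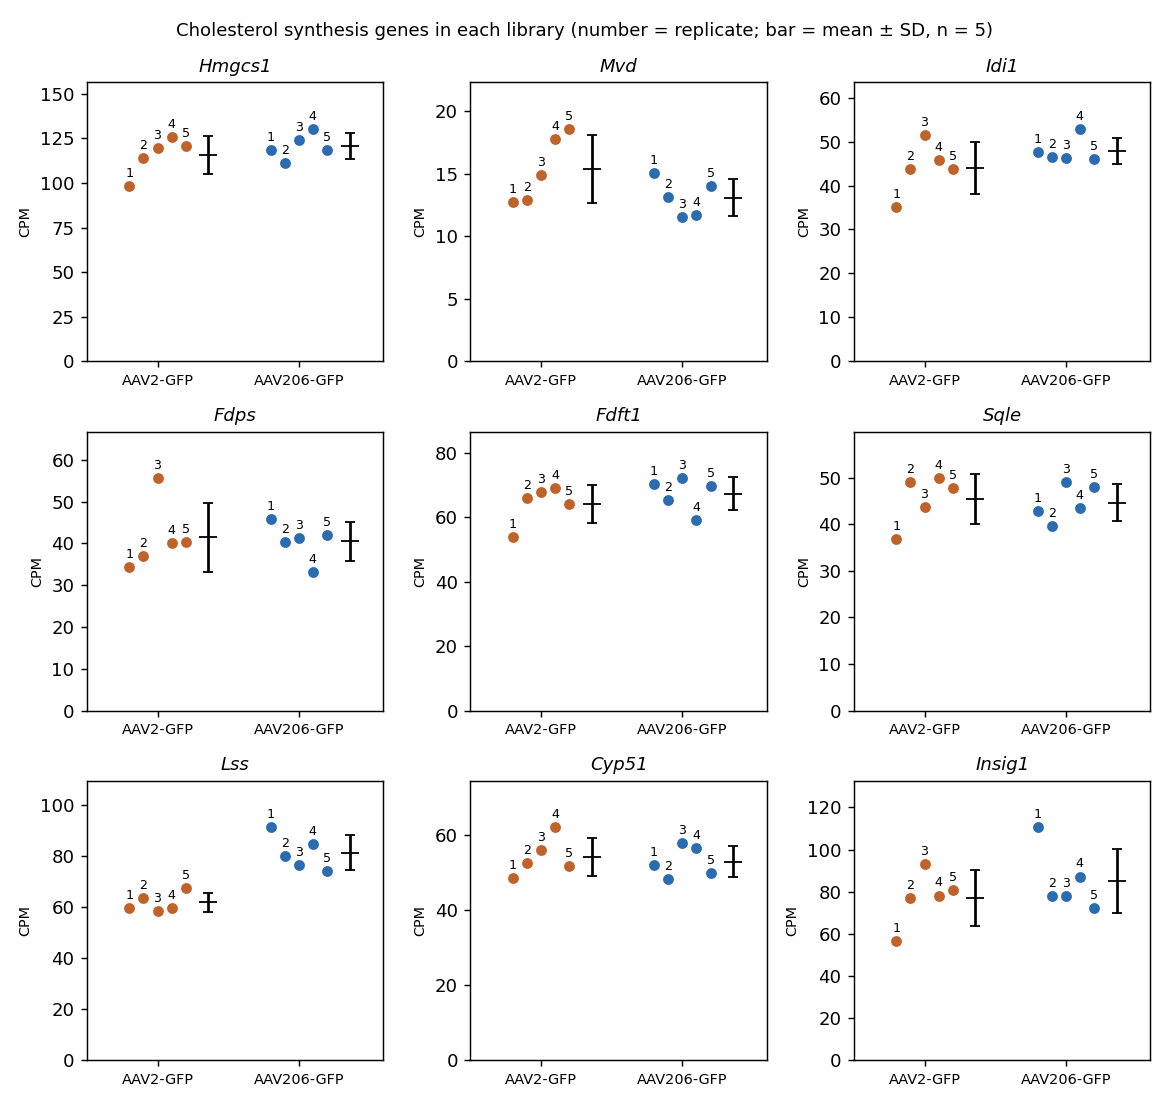
CPM of each of the 9 genes (vertical axes, starting at 0) in the 5 AAV2-GFP and 5 AAV206-GFP libraries, with the replicate number over each point and the mean ± SD beside it. The groups are apart for Lss (58.4 to 67.3 against 73.8 to 91.1 CPM) and overlap for the other 8 genes.

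Lss (ENSMUSG00000033105, chr10:76531588-76557138) encodes lanosterol synthase, which folds squalene epoxide into lanosterol, the first sterol of the pathway. It was at 59.6, 63.5, 58.4, 59.4 and 67.3 CPM in AAV2-GFP replicates 1 to 5 and at 91.1, 80.0, 76.5, 84.4 and 73.8 CPM in AAV206-GFP replicates 1 to 5. All 5 AAV206-GFP libraries lay above the highest AAV2-GFP library, a separation seen with AAV206-GFP higher in 5.41% of all tested genes and in either direction in 9.78%. The means were 61.6 ± 3.70 and 81.2 ± 6.81 CPM (SD, n = 5). On the log2 scale AAV206-GFP was 0.40 higher, with a standard error (SE) of 0.069 and a 95% interval of 0.25 to 0.54 (edgeR adjusted p = 0.00192). Among the 924 genes called higher this was an ordinary size, since their median log2 fold change was 0.43 and 424 of them had a smaller one.

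The Lss difference was little changed in the libraries without a high immune score. Without AAV2-GFP replicate 1 its log2 fold change was 0.39 (edgeR adjusted p = 0.00460), without AAV2-GFP replicates 1 and 4 it was 0.36 (edgeR adjusted p = 0.0250), and with the immune score as a covariate it was 0.35 (edgeR adjusted p = 0.0199). It passed the threshold in all 22 alternatives run, with values between 0.35 and 0.43. Lss had whole counts in every library, with no sign of reads divided between genes. The antisense gene 4930483K19Rik, which overlaps Lss over 11268 bases in GENCODE M21, had at most 4 counts in a library (0.358 CPM).

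Most tested erythrocyte, lens and interferon and antigen presentation genes differed between the groups, and lists of other cell types are given beside them. Beside the counts that follow, 11.2% of all tested genes were called in edgeR, and 28% had an unadjusted p-value under 0.05. The 7 erythrocyte genes summed to 67.7 to 85.6 CPM with AAV2-GFP and 100.3 to 319 CPM with AAV206-GFP, and 4 of the 5 tested were called higher. The 8 lens genes summed to 10.9 to 33.4 and 0.728 to 12.6 CPM, with 2 of the 3 tested called lower and Lim2 at 0 in every library. The 8 RPE genes summed to 14.7 to 44.1 and 17.3 to 25.9 CPM, and none of the 8 was at 0 throughout. Of the 7 tested 1, Rgr, was called lower. At an unadjusted edgeR p-value under 0.05 stood 4 of the 7, and 1 of the 7 had a positive log2 fold change. The 8 Müller glia genes summed to 3468 to 4322 and 3151 to 3821 CPM, with 0 of 8 past the threshold in edgeR and 5 of 8 at an unadjusted p-value under 0.05. Of the 8 ganglion cell genes 1 was called lower, and of the 8 rod genes 1 was called higher. At an unadjusted edgeR p-value under 0.05 stood 3 of the ganglion cell genes and 4 of the rod genes. The 8 oligodendrocyte genes, of cells that make much cholesterol for myelin, summed to 66.5 to 230.3 and 60.0 to 322 CPM, with all 6 tested positive (median log2 fold change 0.94) and 0 past the threshold in edgeR (0 at an unadjusted p-value under 0.05). Mobp, a myelin gene, was at 0 in AAV2-GFP replicates 1 and 4 and AAV206-GFP replicates 2 and 4. It was at 13.8, 12.96 and 25.7 CPM in AAV2-GFP replicates 2, 3 and 5, and at 35.8 to 46.3 CPM in the other 3 AAV206-GFP libraries. AAV206-GFP replicates 2 and 4, with Mobp at 0, had Mbp, another myelin gene, at 32.4 and 34.7 CPM and Lss at 80.0 and 84.4 CPM. Microglia and macrophage genes were called lower in 2 of 9 tested, with sums of 26.2 to 455 against 21.5 to 30.5 CPM. Interferon and antigen presentation genes were called lower in 15 of 19, with sums of 198 to 2402 against 181 to 227 CPM. Both upper ends, 455 and 2402 CPM, were those of AAV2-GFP replicate 1 alone. The part of these cell types in the Lss difference was not tested. The fits without the libraries of high immune score concern immune transcripts only, and those libraries were all AAV2-GFP. In bulk RNA, more cells that express a gene and more RNA per cell cannot be told apart.

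**Figure D2:**
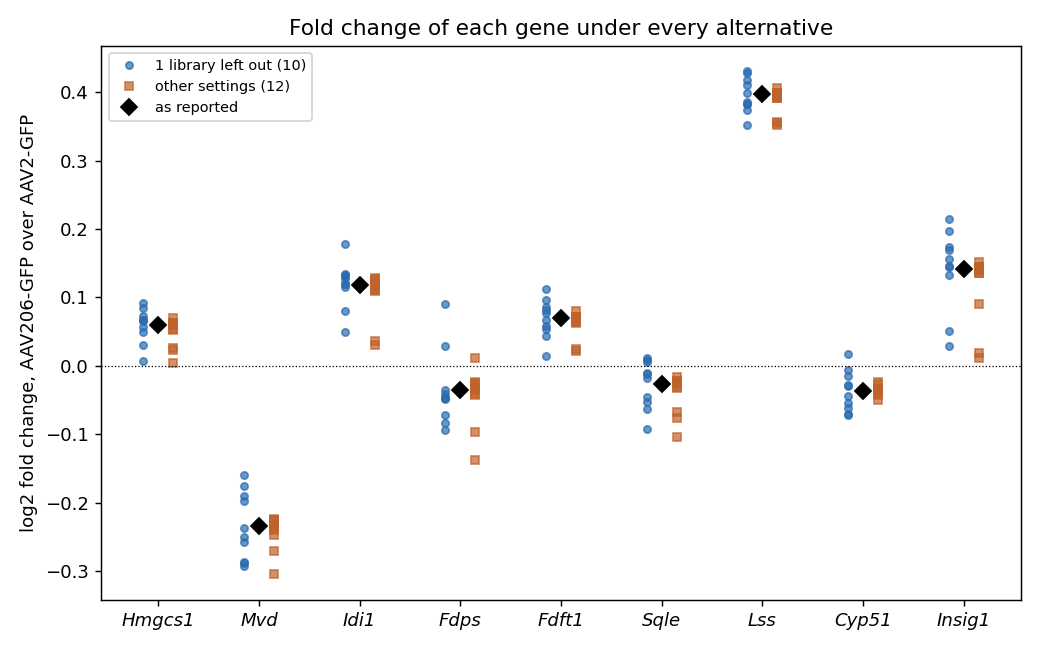
Log2 fold change of AAV206-GFP over AAV2-GFP (vertical axis) of each of the 9 genes as reported (diamonds), with 1 library left out (10 circles) and under 12 other settings (squares). Lss stays between 0.35 and 0.43, while values of Fdps, Sqle and Cyp51 lie on both sides of 0.

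The 4 enzymes of the mevalonate and isoprenoid steps did not differ beyond the spread of the libraries. Hmgcs1 (ENSMUSG00000093930, chr13:119690379-119708260) encodes the HMG-CoA synthase that feeds the rate-limiting reductase step. It was at 98.1, 114, 119.5, 126 and 121 CPM in AAV2-GFP replicates 1 to 5 and at 119, 111, 124, 130.4 and 119 CPM in AAV206-GFP replicates 1 to 5. The groups overlapped over most of their range, with AAV2-GFP replicate 1 the lowest of all. The means were 116 ± 10.7 and 121 ± 7.09 CPM (SD, n = 5), and the log2 fold change was 0.060 with a 95% interval of -0.090 to 0.21 (edgeR adjusted p = 0.617). It was 0.0068 without AAV2-GFP replicate 1 (edgeR adjusted p = 0.955). Its estimated counts carried decimals in 9 libraries, as reads divided between genes give, so its level is uncertain.

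Mvd (ENSMUSG00000006517, chr8:122433601-122443422), the decarboxylase that makes isopentenyl diphosphate, had the lowest fold change of the group. It was at 12.7, 12.9, 14.9, 17.8 and 18.6 CPM in AAV2-GFP replicates 1 to 5 and at 15.02, 13.1, 11.5, 11.7 and 14.04 CPM in AAV206-GFP replicates 1 to 5. AAV206-GFP replicates 3 and 4 lay below every AAV2-GFP library and the other 3 lay within that group's range. The means of 15.4 ± 2.71 and 13.1 ± 1.496 CPM (SD, n = 5) gave a log2 fold change of -0.23 with a 95% interval of -0.51 to 0.046 (edgeR adjusted p = 0.261). As a percent change that interval runs from -29.9% to 3.24%, the widest of the 9 on the log2 scale, in the gene with the fewest counts. In GENCODE M21 the protein-coding gene Gm20388 covers all 9822 bases of Mvd on the opposite strand. Gm20388 was not among the gene identifiers of the count table, so it has no values here. The strand setting of the counting is not given, so whether its reads enter the Mvd values cannot be told.

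Idi1 (ENSMUSG00000058258, chr13:8885501-8892451) encodes the isomerase that turns isopentenyl into dimethylallyl diphosphate. Its values were 35.2, 43.8, 51.5, 45.8 and 43.8 CPM in AAV2-GFP replicates 1 to 5 and 47.7, 46.5, 46.2, 52.9 and 46.0 CPM in AAV206-GFP replicates 1 to 5. Apart from AAV206-GFP replicate 4, the AAV206-GFP libraries lay close together and inside the AAV2-GFP range. The log2 fold change was 0.12 with a 95% interval of -0.066 to 0.30 (edgeR adjusted p = 0.394). Without AAV2-GFP replicate 1 it was 0.049, and did not pass there either. Idi1 carried decimals in 8 libraries.

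Fdps (ENSMUSG00000059743, chr3:89093588-89101959), the farnesyl diphosphate synthase at the branch point to sterols and to the lipids attached to small GTPases, was at 34.4, 36.9, 55.6, 40.0 and 40.4 CPM in AAV2-GFP replicates 1 to 5. In AAV206-GFP replicates 1 to 5 it was at 45.9, 40.2, 41.3, 33.1 and 42.0 CPM. AAV2-GFP replicate 3 was the high library and AAV206-GFP replicate 4 the low one. The log2 fold change of -0.035, with a 95% interval of -0.28 to 0.21 (edgeR adjusted p = 0.879), became 0.091 without AAV2-GFP replicate 3 (edgeR adjusted p = 0.584). Without AAV2-GFP replicate 1 it was -0.094 (edgeR adjusted p = 0.630). In GENCODE M21 the protein-coding gene Gm43738 overlaps Fdps on the same strand over 7512 bases. Gm43738 was not among the gene identifiers of the count table, and whether its reads enter the Fdps values was not tested.

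The squalene steps ahead of Lss and the sterol step after it showed no difference that passed. Fdft1 (ENSMUSG00000021273, chr14:63145150-63179578), squalene synthase, commits farnesyl diphosphate to sterols. It was at 53.9, 65.8, 67.7, 69.0 and 64.1 CPM in AAV2-GFP replicates 1 to 5 and at 70.3, 65.4, 72.1, 59.1 and 69.7 CPM in AAV206-GFP replicates 1 to 5. Although 3 AAV206-GFP libraries lay above every AAV2-GFP library, AAV206-GFP replicate 4 was below 4 of the 5. Its log2 fold change was 0.070 with a 95% interval of -0.093 to 0.23 (edgeR adjusted p = 0.591). It was 0.015 without AAV2-GFP replicate 1 (edgeR adjusted p = 0.917). Fdft1 carried decimals in all 10 libraries and overlaps Ctsb on the opposite strand by 774 bases in GENCODE M21. Ctsb, which encodes the protease cathepsin B, fell with AAV206-GFP from 428 ± 34.9 to 344 ± 22.4 CPM (SD, n = 5; edgeR adjusted p = 0.00684), and whether its reads enter the Fdft1 values was not tested.

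Sqle (ENSMUSG00000022351, chr15:59315077-59331192) encodes squalene epoxidase, the oxygen-requiring enzyme that makes the substrate of Lss. It was at 36.8, 49.1, 43.7, 49.9 and 47.7 CPM in AAV2-GFP replicates 1 to 5 and at 42.9, 39.6, 49.1, 43.5 and 48.0 CPM in AAV206-GFP replicates 1 to 5, so that every AAV206-GFP library fell inside the AAV2-GFP range. The log2 fold change was -0.026 with a 95% interval of -0.21 to 0.16 (edgeR adjusted p = 0.880), and -0.092 without AAV2-GFP replicate 1 (edgeR adjusted p = 0.478). Cyp51 (ENSMUSG00000001467, chr5:4081145-4104746), the cytochrome P450 that takes a methyl group off lanosterol, was at 48.5, 52.7, 56.1, 62.1 and 51.7 CPM in AAV2-GFP replicates 1 to 5 and at 52.0, 48.2, 57.9, 56.6 and 49.99 CPM in AAV206-GFP replicates 1 to 5. All but 1 of its AAV206-GFP libraries lay inside the AAV2-GFP range. Its log2 fold change was -0.036 with a 95% interval of -0.20 to 0.13 (edgeR adjusted p = 0.799), and -0.072 without AAV2-GFP replicate 1 (edgeR adjusted p = 0.581). Neither interval reached the estimate for Lss, although the difference between Lss and its neighbours was not itself tested. In GENCODE M21 Cyp51 overlaps Akap9 on the opposite strand by 166 bases. Akap9 was at 127 to 189 CPM and did not pass (edgeR adjusted p = 0.524). Whether reads of Akap9 enter the Cyp51 values was not tested.

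Insig1 (ENSMUSG00000045294, chr5:28071363-28078662) is the sterol-sensing brake that retains SCAP, and is itself a target of SREBP2. It was at 56.5, 77.1, 93.2, 78.1 and 80.6 CPM in AAV2-GFP replicates 1 to 5 and at 110.5, 77.8, 77.8, 87.2 and 72.3 CPM in AAV206-GFP replicates 1 to 5. Both extremes of the gene were replicate 1 of a group, the lowest in AAV2-GFP and the highest in AAV206-GFP. The log2 fold change was 0.14 with a 95% interval of -0.12 to 0.40 (edgeR adjusted p = 0.480). It was 0.050 without AAV2-GFP replicate 1 and 0.030 without AAV206-GFP replicate 1 (edgeR adjusted p = 0.792 and 0.890).

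**Figure D3:**
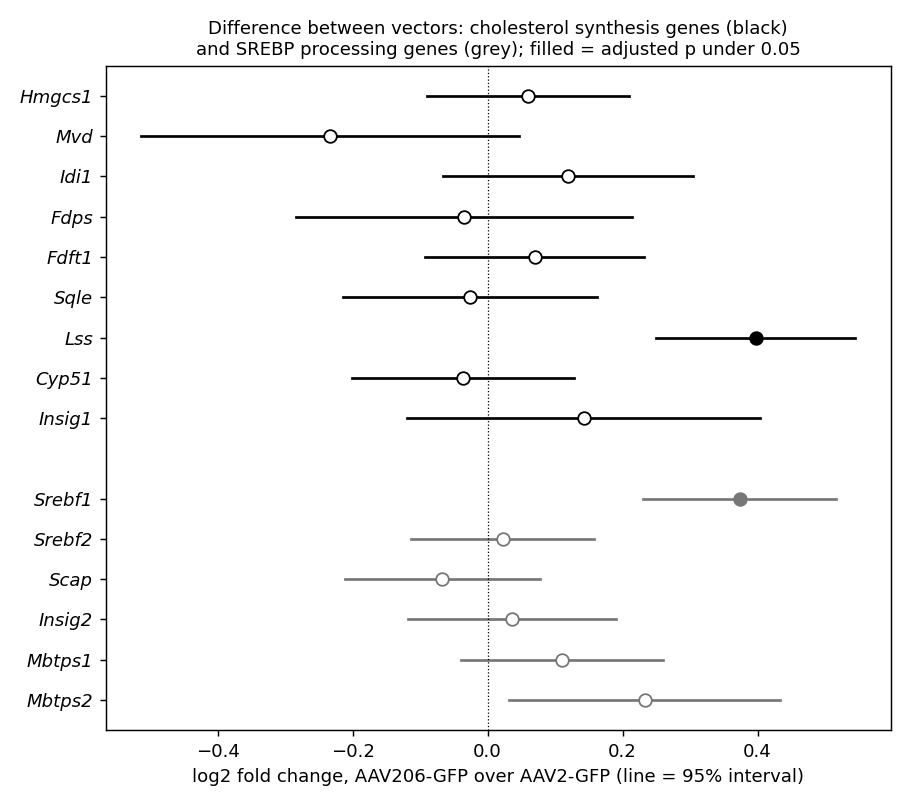
Log2 fold change of AAV206-GFP over AAV2-GFP (horizontal axis) with its 95% interval for the 9 cholesterol synthesis genes (black) and 6 genes of SREBP processing (grey); filled points have an edgeR adjusted p-value under 0.05. Lss at 0.40 and Srebf1 at 0.37 are the filled points, and 8 of the 9 intervals of the cholesterol synthesis genes span 0.

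Within groups the genes shared 1 feature, a low AAV2-GFP replicate 1. That library was the lowest of its 5 in 8 of the 9 genes, Lss being the exception, whereas it was the lowest in 23.5% of all tested genes. Its deviation from the mean of the 10 libraries lay between -0.50 (Insig1) and -0.14 (Cyp51) on the log2 scale, with a median of -0.26. The medians of the other 9 libraries lay between -0.054 and 0.096. Among 15 further enzymes of the pathway AAV2-GFP replicate 1 was the lowest of its group in 8. This was noticed in the data and is given as a description. The library is also the one with the highest immune score, and the part of that in the low values was not tested.

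**Figure D4:**
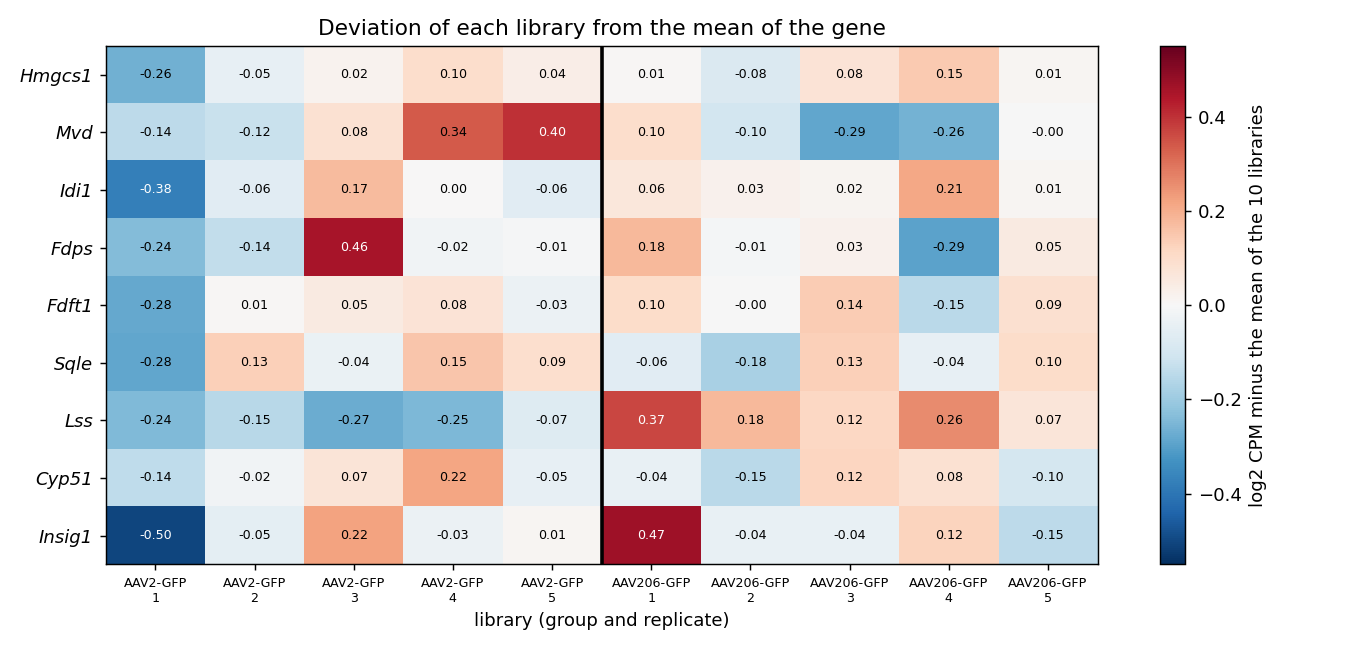
Log2 CPM of each gene (rows) in each library (columns) minus the gene's mean over the 10 libraries; blue is lower and red is higher. The column of AAV2-GFP replicate 1 is negative for every gene, from -0.50 to -0.14, and Lss is the row that is negative in all AAV2-GFP libraries and positive in all AAV206-GFP libraries.

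Without that library the genes were less alike. After centring log2 CPM on the group means, the Pearson r between a gene and the mean of the other 8 lay between 0.50 (Mvd, Cyp51) and 0.78 (Insig1) over the 10 libraries, except for Lss at 0.16. Without AAV2-GFP replicate 1 these values were -0.25 (Sqle) to 0.52 (Insig1) over 9 libraries, with Lss at 0.027. The 5 genes outside all lists whose centred pattern was most like the mean of the 9 genes were Camkv, Mtss1l, Pgbd5, Gem and Gm20683, with r between 0.95 and 0.97 over 10 libraries, and between 0.85 and 0.91 without AAV2-GFP replicate 1. They were the highest of 11783 candidates with a mean of at least 5 CPM, all points share the libraries, and none of the 5 passed the edgeR threshold between vectors (adjusted p = 0.102 to 0.603).

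Set against the longest coding transcript, the 9 genes fell into 3 levels. Per kilobase of that transcript in GENCODE M21, Hmgcs1 (33.4 ± 3.09 CPM per kb in AAV2-GFP, SD, n = 5), Fdps (30.0 ± 6.00) and Insig1 (28.6 ± 4.90) were the highest, and their ranges overlapped. Fdft1, Sqle, Idi1, Cyp51 and Lss followed with AAV2-GFP means of 17.3 to 13.2 CPM per kb. Neighbours in this order overlapped, although the ranges of Fdft1 (14.6 to 18.7) and Lss (12.5 to 14.4) did not. Mvd was the lowest at 8.76 ± 1.55 CPM per kb. In no library did a gene of one level reach the range of the next. With AAV206-GFP the levels were the same, and within the middle one Lss stood at 17.4 ± 1.46 CPM per kb (SD, n = 5), the fifth of the 9 in place of the eighth. The levels depend on the length chosen and are not kept with merged exons: per kilobase of merged exons, which for Lss come to 10.8 kb against 4.67 kb for the longest coding transcript, Lss had the lowest AAV2-GFP level, 5.71 CPM per kb. On that scale Fdps stood at 9.85 CPM per kb, below Fdft1 (15.2), Idi1 (12.6) and Cyp51 (12.3), and Mvd (8.27) stood above Sqle (8.19).

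The rest of the pathway was described with 6 lists of 64 tested genes in all, of which 4 were called higher and 2 lower. These 6 are 9.38% of the lists, against 11.2% of all tested genes, so their share was not above the background. Of the 15 other enzymes of cholesterol synthesis, 0 passed in edgeR and 2 (13.3%) had an unadjusted p-value under 0.05, against 28% of all tested genes. The 2 are given as values only. Hsd17b7, a ketoreductase of the later sterol steps, was at 11.97 ± 1.21 and 15.4 ± 2.03 CPM (SD, n = 5), and its log2 fold change was 0.36 (edgeR adjusted p = 0.0586). Lbr, a sterol reductase of the nuclear envelope, was at 36.1 ± 3.87 and 30.7 ± 2.06 CPM (SD, n = 5), at a log2 fold change of -0.24 (edgeR adjusted p = 0.0812), and carried decimals in all libraries. The methyl oxidase Msmo1, which acts after Cyp51, had -0.14, and the late reductase Dhcr7 had -0.13. The median over the 15 was 0.047.

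Among the 6 genes that process SREBP and sense sterols, 1 (16.7%) was called, against 11.2% of all tested genes. It was Srebf1, which was higher with AAV206-GFP. Srebf1 encodes SREBP1, the relative of SREBP2 that mainly drives fatty acid synthesis. It was at 134, 129.5, 130.1, 143 and 131 CPM in AAV2-GFP replicates 1 to 5 and at 190.5, 174, 166, 150.4 and 183 CPM in AAV206-GFP replicates 1 to 5. No library of one group reached the other. Its log2 fold change was 0.37, SE 0.067 (edgeR adjusted p = 0.00235), and 0.40 without AAV2-GFP replicates 1 and 4 (edgeR adjusted p = 0.00873). Srebf2, which encodes SREBP2 itself, was at 180.1 ± 15.3 and 183 ± 4.10 CPM (SD, n = 5), and its log2 fold change was 0.022 with a 95% interval of -0.11 to 0.16 (edgeR adjusted p = 0.854). It was -0.024 without AAV2-GFP replicate 1 (edgeR adjusted p = 0.829). Scap, Insig2 and the protease genes Mbtps1 and Mbtps2 had -0.067, 0.037, 0.11 and 0.23 and did not pass.

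Of the 8 other SREBP2 targets, 1 (12.5%) was called, against 11.2% of all tested genes. Acsl3, an acyl-CoA synthetase of lipid droplets, was at 292, 271, 313, 303 and 291 CPM in AAV2-GFP replicates 1 to 5 and at 345, 369.9, 369.7, 369 and 385 CPM in AAV206-GFP replicates 1 to 5. The groups did not overlap, and AAV206-GFP was 0.32 higher on the log2 scale, SE 0.056 (edgeR adjusted p = 0.00189). Stard4, which carries sterol between membranes, had 0.26 (edgeR adjusted p = 0.0722).

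Of the 13 fatty acid synthesis genes 1 was called higher and 2 lower, together 23.1%, against 11.2% of all tested genes. Acss2, which makes acetyl-CoA from acetate, rose from 46.5 ± 2.09 to 56.4 ± 2.57 CPM (SD, n = 5) without overlap of the groups, or by 0.28 on the log2 scale, SE 0.061 (edgeR adjusted p = 0.00870). Without AAV2-GFP replicates 1 and 4 it was 0.27 (edgeR adjusted p = 0.0623). Elovl5 and Fads2, which elongate and desaturate polyunsaturated fatty acids, fell by 0.34 and 0.26 on the log2 scale (edgeR adjusted p = 0.0277 and 0.0483). Leaving out single libraries in turn, Elovl5 passed in 6 of 10 fits (not without AAV2-GFP replicate 3 or 4 or AAV206-GFP replicate 3 or 5). Fads2 passed in 2 of 10, those without AAV2-GFP replicate 1 and without AAV206-GFP replicate 1. Elovl5 did not pass without AAV2-GFP replicates 1 and 4 together either (-0.31, edgeR adjusted p = 0.102).

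In the list of sterol efflux and oxysterol response, 1 of 14 tested genes (7.14%) was called, against 11.2% of all tested genes. Abca1, which exports cholesterol to apolipoproteins, was at 91.4, 60.1, 45.3, 52.5 and 60.3 CPM in AAV2-GFP replicates 1 to 5 and at 86.4, 97.2, 99.2, 104 and 93.9 CPM in AAV206-GFP replicates 1 to 5. AAV2-GFP replicate 1 alone reached the AAV206-GFP range. Its log2 fold change was 0.64, SE 0.14 (edgeR adjusted p = 0.00732), and 0.82 without AAV2-GFP replicate 1 (edgeR adjusted p = 3.4e-05). Its partner transporter gene Abcg1 had 0.019 and did not pass. The apolipoprotein gene Apoe, also among the Müller glia genes, had -0.37 (edgeR adjusted p = 0.113). Without AAV2-GFP replicate 1 Apoe was at -0.28 (edgeR adjusted p = 0.206). The lysosomal sterol carrier gene Npc2 had -0.27 (edgeR adjusted p = 0.219). AAV2-GFP replicate 1 was its high library at 60.9 CPM, against 31.0 to 39.9 CPM in the other 9 libraries. Leaving it out gave -0.079 (edgeR adjusted p = 0.577). Of the 8 tested genes of the isoprenoid branch 0 passed in edgeR. At an unadjusted p-value under 0.05 stood 2 (25%), against 28% of all tested genes. They were Pggt1b at 0.27 and Nus1 at -0.22 (edgeR adjusted p = 0.0739 and 0.0873). Without AAV2-GFP replicate 1 Pggt1b was at 0.33 and passed (edgeR adjusted p = 0.0254).

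**Figure D5:**
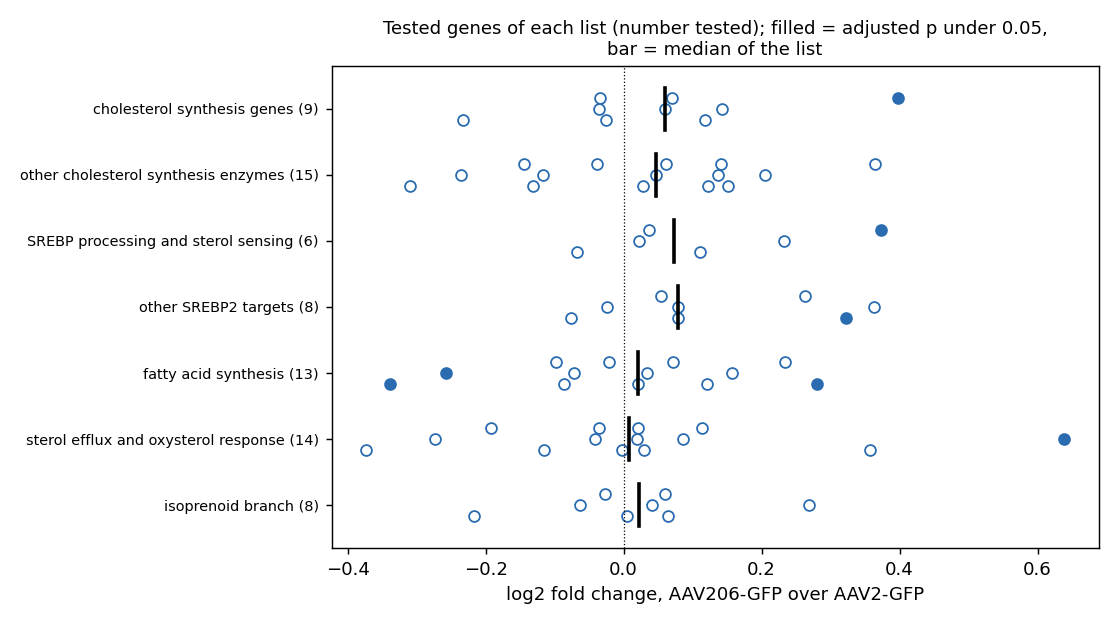
Log2 fold change of AAV206-GFP over AAV2-GFP (horizontal axis) for the tested genes of the 9 cholesterol synthesis genes and of 6 pathway lists; filled points have an edgeR adjusted p-value under 0.05 and the bar is the list median. The medians lie between 0.0082 and 0.079, and 7 points are filled.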

How the data were processed

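The 10 RNA-seq libraries of mouse retina were grouped by their titles, 5 per vector. Per the labels' protocols, Trizol was used for total RNA and an NEBNext Ultra kit for libraries, sequenced as read pairs of 150 bases. STAR 2.7.10b, RSEM 1.3.1 and mm10 are named in the submitters' processing notes; annotation and strand setting are not given in the sources used here. The authors deposited estimated counts per Ensembl gene, not scaled between libraries. Decimals occurred in 15.7% of values above 0, and counts were rounded to whole numbers for the test.

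Genes kept by filterByExpr (minimum count 10) were tested with edgeR 4.0.16 in R 4.3.3 (TMM factors, quasi-likelihood F test, all 10 libraries, no covariate). Benjamini-Hochberg adjustment ran over all tested genes (threshold 0.05). Each SE is the size of the log2 fold change over the root of F, and 95% intervals use the test's degrees of freedom. Symbols came from GENCODE M21 (98.4% of tested genes), promoters from RefSeq. Alternatives included DESeq2 1.42.0 and limma 3.58.1. Libraries of one group differed beyond sampling noise (chi-square over its degrees of freedom, 3.57 to 21.4 in 20 pairs). The script was tested on simulated data, with the changed genes drawn from all tested genes at any level. It recovered 15 of 49 (30.6%) changed by 1.3-fold and 32 of 49 (65.3%) changed by 1.5-fold. A gene that did not pass is therefore not shown to be unchanged.

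The genes, lists and tests were chosen with earlier results of these data known. All 9 genes are named; of the other enzymes and SREBP processing genes any tested gene may be named, and of each other list the 4 with the smallest p-values. The 5 genes most like the group were ranked by centred log2 CPM. Abcg1, Ctsb, Rgr, Mobp, Mbp and the overlapping genes of the count table were named after their values were seen. The floor of 3 counts covers counting error only, because amplified reads without molecular identifiers are not independent.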

Additional observations from a re-analysis of the deposited data

Results flagged for a closer look

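In 30 groups of 5 libraries (15 genes, the 9 cholesterol synthesis genes and the 6 pathway genes that were called), 2 had a library whose gap to the nearest other one, divided by the range of its group, was above Dixon's 95% critical value of 0.71. Chance reaches this in about 1 of 20 groups, so about 1.5 such groups arise by chance alone. Idi1 was at 52.9 CPM in AAV206-GFP replicate 4 against 46.0 to 47.7 CPM in the other 4 libraries (ratio 0.759). Fdps was at 55.6 CPM in AAV2-GFP replicate 3 against 34.4 to 40.4 CPM (ratio 0.716).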

How the results depend on the processing

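Each gene was recomputed under 22 alternatives: 3 scalings, 2 filters, 4 other tests, the replicate block, 10 fits without 1 library, 1 without AAV2-GFP replicates 1 and 4, and 1 with the immune score as covariate. The count of cholesterol synthesis genes past the threshold was 1 in all 22, each time Lss. Of the 198 values for the 9 genes, 191 kept their direction and side of the threshold and 7 turned their sign, none of these past the threshold. Without 1 library, Fdps ranged from -0.094 to 0.091, Sqle from -0.092 to 0.011 and Cyp51 from -0.072 to 0.017. Fdps turned from -0.035 to 0.011 in limma-voom with sample weights, to 0.091 without AAV2-GFP replicate 3 and to 0.029 without AAV206-GFP replicate 4. Sqle turned from -0.026 to 0.0052 without AAV2-GFP replicate 2, to 0.0092 without AAV2-GFP replicate 4 and to 0.011 without AAV206-GFP replicate 2. Cyp51 turned from -0.036 to 0.017 without AAV2-GFP replicate 4. The summed level without AAV2-GFP replicate 1 was added after seeing the data. The pathway lists held 4 to 8 called genes in the alternatives, against 6.

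The number of all genes past the threshold, 1747, was 985 without AAV2-GFP replicates 1 and 4 and 844 with the immune score as covariate. Without 1 library it lay between 991 (without AAV2-GFP replicate 4) and 1912, and without AAV206-GFP replicates 2 and 4 in turn it was 1061 and 1056. The cause was not tested. With the replicate number as a block 1085 genes passed, and Lss was at 0.39 (edgeR adjusted p = 0.0120). The numbers do not pair the libraries: deviations of same-numbered libraries correlated at -0.048 to 0.036, and 0 of 5 AAV2-GFP libraries correlated best with its own number. Elovl5 was past the threshold in 9 and Fads2 in 8 of the 12 alternatives that did not leave out a single library. The promoter counts were the same in the 250 bases before the start.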
